A study of Macaca mulatta with 24 samples.

Results

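The transcription factors that direct B-cell development and plasma-cell differentiation were examined in whole blood of rhesus macaques before and after total body irradiation. The 10 genes were PAX5, EBF1, POU2AF1, SPIB, BACH2, IRF4, IRF8, BCL6, PRDM1 and XBP1. They were chosen by symbol: every probe of the array that carries one of these names was taken, which gave 11 probes for 8 of the 10 genes, among 43603 probes and 15024 distinct symbols. EBF1 and SPIB had no probe under their own symbol. For each, 1 probe was found by its accession in the RefSeq gene table. These 2 probes are described apart and left out of every count of called genes among the 10. The other lists and the shares of all genes were drawn from probes named either way, so these 2 probes count among all genes. Of the 8 genes with a named probe, 7 (10 of the 11 probes) gave a signal well above background on 4 or more of the 24 arrays and were tested, and PAX5 did not.

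Blood was drawn from rhesus macaques (Macaca mulatta) of both sexes, and RNA depleted of globin transcripts was hybridized to one-colour Agilent arrays. The groups were pre-irradiation (7 arrays, dose 0 Gy, labelled day 0) and day 3 (4 arrays), day 5 (6 arrays) and day 7 (7 arrays) after 4 Gy to the whole body. The labels call the radiation X-rays, and the methods of the study name a cobalt gamma source and adult animals of Chinese origin, with the first blood drawn before the day of exposure. The arrays carry replicate numbers of 7 animals, 4 males and 3 females, sampled repeatedly, and the arrays hold no unirradiated animal followed over the same days, so time since the first sample and irradiation cannot be told apart.

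These genes form a network with opposing arms. EBF1 and PAX5 establish and hold B-cell identity, and SPIB, POU2AF1 (a coactivator that binds octamer factors), BACH2, IRF8 and BCL6 act in mature and germinal-centre B cells, where BCL6 and BACH2 repress the plasma-cell programme. IRF4 and PRDM1 (Blimp-1) drive the switch to plasma cells, and XBP1 then expands the secretory apparatus. B lymphocytes are among the most radiosensitive cells of blood, but most of these genes are used elsewhere as well: BCL6 and XBP1 in myeloid cells, PRDM1 in T, NK and myeloid cells, IRF8 in monocytes and dendritic cells, BACH2 and IRF4 in T cells.

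The 3 probes that bear most on how the measurements can be read are shown 5′ to 3′ with their position on rheMac2, the build in the file headers. The PAX5 probe lies at chr15:40467211-40467270 on the + strand and is the gene that gave no measurable signal. The POU2AF1 probe lies at chr14:109816560-109816619 on the − strand, and the IRF4 probe at chr4:265378-267760 on the + strand.
PAX5: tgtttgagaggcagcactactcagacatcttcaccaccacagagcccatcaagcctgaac
POU2AF1: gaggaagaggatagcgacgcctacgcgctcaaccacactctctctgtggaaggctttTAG
IRF4: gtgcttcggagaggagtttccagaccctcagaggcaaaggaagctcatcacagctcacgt
Capitals mark a stop triplet at the end of the POU2AF1 probe, which closes 1 of its frames, while 1 other frame has no stop. The 60 bases of the IRF4 probe span 2383 bases of the genome and therefore cross an intron: the probe pairs in full with spliced RNA. The PAX5 probe has 2 frames without a stop. The other probes are given by position only: EBF1 at chr6:155104038-155104097, SPIB at chr19:56635137-56635196, BCL6 at chr2:180062210-180062269 and PRDM1 at chr4:102158058-102158117. No gene annotation of this build was used here, so exons and untranslated regions are not assigned.

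The genes showed 3 patterns. The probes matched to EBF1 and SPIB were far lower on each day after irradiation, and POU2AF1 was lower at day 3, the 1 day on which it was called. BCL6 and PRDM1 were higher at day 5. BACH2, IRF8, IRF4 and XBP1 passed the threshold on no day against pre-irradiation, although the largest differences of BACH2 and IRF8 were as large as some that were called. All values are log2 normalized signals, differences are log2 changes ± SE from limma with Benjamini-Hochberg adjustment over all probes tested, and a gene was called at an adjusted p under 0.005. At day 3, 1 of the 7 genes was called lower and 0 higher, where 7.58% of all 10859 genes tested were called lower and 5.96% higher. At day 5, 0 were called lower and 2 higher, against 9.12% and 6.23% of 10862 genes. At day 7, 0 of 7 were called in either direction by limma, against 9.86% of all genes (7.19% lower and 2.67% higher), while 6 had an unadjusted p under 0.05, as did 38.2% of all genes. At the looser threshold of an adjusted p under 0.05, 4, 4 and 3 of the 7 genes were called on days 3, 5 and 7, against 36.0%, 33.8% and 26.3% of all genes. The median change of the 7 genes was -0.42, 0.13 and -0.11 at days 3, 5 and 7, and the median of all genes lay between -0.0108 and -0.0032 on the 3 days. The days share the same 7 pre-irradiation arrays, so the counts of the days are not independent of each other. Counts of animals above or below their own first sample, and of arrays in groups that separate only in part, were not made for all genes. Where given below, such counts are descriptions.

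**Figure D1:**
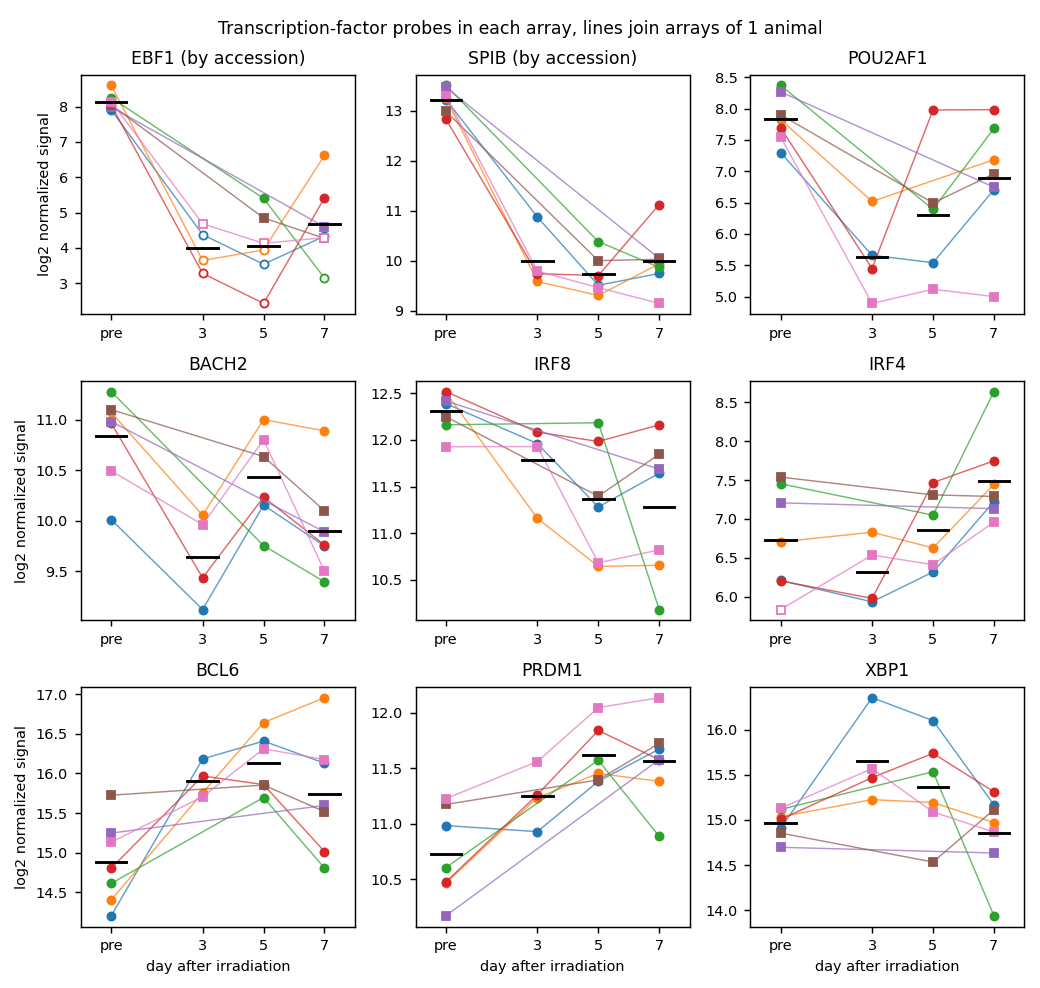
Log2 normalized signal of the brightest tested probe of each gene (vertical axis, scaled per panel) against the day after irradiation (horizontal axis). Each colour is 1 animal, circles are males, squares are females, open symbols are spots not well above background, and black bars are group means. EBF1 and SPIB are lower on each day after irradiation, POU2AF1 is lower at day 3, and BCL6 and PRDM1 are higher at day 5.

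EBF1, the pioneer factor that opens B-lineage genes, had a signal between 7.91 and 8.60 on the 7 pre-irradiation arrays (median 8.05), all well above background. At day 3 its values were 4.38, 3.64, 3.28 and 4.69, none of them well above background. At day 5 they ran from 2.43 to 5.40 (median 4.04), with 2 of 6 arrays above background, and at day 7 from 3.15 to 6.62 (median 4.33), with 3 of 7. Every array after irradiation lay below every array before it, as was the case for 12.1%, 8.31% and 6.01% of all genes on days 3, 5 and 7. Each animal sampled was lower than its own first sample, in 4 of 4, 6 of 6 and 7 of 7 animals. The EBF1 signal at day 3 was at least 9.72-fold lower (adjusted p = 3.30e-06), a bound set by the lowest signal that counts as above background. The fitted changes at days 5 and 7, which rest partly on spots below background, were -4.09 ± 0.369 (adjusted p = 3.45e-06) and -3.47 ± 0.388 (adjusted p = 2.61e-05). With another background correction (normexp), the EBF1 changes were -1.22, -0.73 and -1.29 and none was called (adjusted p = 0.0710, 0.298 and 0.0589).

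SPIB is an Ets-family factor of B cells and plasmacytoid dendritic cells. Its probe is named LOC719262 in the files, and the transcripts listed for it include a transcript described as DNA polymerase delta 1, for which no other probe was measured here, so the 2 sources cannot be told apart. The signal lay between 12.83 and 13.51 before irradiation (median 13.25) and was 10.88, 9.59, 9.74 and 9.80 at day 3. It ran from 9.31 to 10.39 at day 5 (median 9.61) and from 9.15 to 11.13 at day 7 (median 9.94). No array after irradiation reached the lowest array before it. The SPIB changes on days 3, 5 and 7 were -3.22 ± 0.244, -3.50 ± 0.188 and -3.24 ± 0.238, that is 9.34-, 11.3- and 9.43-fold lower (adjusted p = 1.04e-05, 3.11e-08 and 8.41e-07). The group means after irradiation did not differ from each other beyond their spread: day 7 less day 3 was -0.01 ± 0.348 and day 7 less day 5 was 0.26 ± 0.275 (adjusted p = 0.985 and 0.632). Day 5 less day 3 was -0.27 ± 0.296 (adjusted p = 0.790). Within animals SPIB was lower at day 5 than at day 3 in 4 of 4, with differences from -1.365 to -0.0379.

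POU2AF1 was the 1 named gene called lower. Its signal lay between 7.30 and 8.37 before irradiation (median 7.82) and at 5.66, 6.52, 5.45 and 4.89 at day 3, so the groups did not overlap. Of all genes, 12.1% were lower without overlap at day 3. The change was -2.21 ± 0.295, or 4.63-fold lower (adjusted p = 0.000388), and the differences within the 4 animals ran from -2.65 to -1.30. Blocked by animal the difference was -1.96 and no longer called (adjusted p = 0.00628), and with normexp it was -0.85 (adjusted p = 0.195).

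Later the POU2AF1 values spread out. At day 5 the 5 usable arrays ran from 5.12 to 7.98 (median 6.39), the spot of replicate 2 having been flagged as an outlier and dropped from the fit, and the change of -1.54 ± 0.403 was not called (adjusted p = 0.0101). It was lower in 4 of 5 animals. Replicate 4 was the exception, 0.29 above its own first sample. Without replicate 4 the day 5 change was -1.98 and was called (adjusted p = 0.00112). At day 7 the range was 5.00 to 7.98 (median 6.96), with a change of -0.95 ± 0.362 (adjusted p = 0.0640) and 6 of 7 animals lower. Replicate 4 stood 0.29 above its first sample, and replicate 7 differed by -2.54 from its own. From day 3 to day 7 POU2AF1 was higher in 4 of 4 animals, by 0.11 to 2.54, and the difference of 1.27 ± 0.49 between these days was not called (adjusted p = 0.0974, against 1.58% of all genes called in that comparison).

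BACH2, the repressor that keeps B cells from becoming plasma cells and is also active in T cells, has 2 probes that followed each other across the arrays (r = 0.90, a description). The brighter probe lay between 10.01 and 11.28 before irradiation (median 10.98) and at 9.12, 10.06, 9.44 and 9.96 at day 3. It ran from 9.75 to 11.00 at day 5 (median 10.44) and from 9.40 to 10.89 at day 7 (median 9.76). The values thus dipped at day 3, stood nearer their start at day 5 and were lower again at day 7. The changes were -1.20 ± 0.267 (adjusted p = 0.00524), -0.41 ± 0.244 (adjusted p = 0.203) and -0.95 ± 0.246 (adjusted p = 0.0106), and none was called. The brighter BACH2 probe was lower in 4 of 4, 4 of 6 and 7 of 7 animals. The dimmer probe gave -1.03, -0.10 and -0.74. Without replicate 2, whose day 7 array is the highest for both probes, the day 7 changes were -1.07 and -1.02 and both were called (adjusted p = 0.00469 and 0.00303). Within animals both BACH2 probes were higher at day 5 than at day 3 in 4 of 4, and at day 7 the brighter probe was lower than at day 5 in 6 of 6 and the dimmer in 5 of 6. Neither difference of the brighter probe was called (0.79 ± 0.284 and -0.53 ± 0.262, adjusted p = 0.373 and 0.266).

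IRF8, which acts in B cells and is required for monocytes and dendritic cells, gave different values with its 2 probes (r = 0.53). The brighter probe lay between 11.93 and 12.52 before irradiation (median 12.39) and at 11.96, 11.16, 12.08 and 11.93 at day 3. It ran from 10.64 to 12.19 at day 5 (median 11.34) and from 10.18 to 12.16 at day 7 (median 11.64). At day 7, 6 of 7 arrays lay below all pre-irradiation arrays and all 7 animals were below their own first sample. No share of all genes stands beside these counts. The changes of -0.53 ± 0.200, -0.95 ± 0.247 and -1.03 ± 0.276 were not called (adjusted p = 0.0580, 0.00886 and 0.0128). The day 5 change was called without replicate 3 (-1.14, adjusted p = 0.00458). The dimmer IRF8 probe moved by -0.35, -0.40 and -0.39 (adjusted p = 0.222, 0.408 and 0.264).

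**Figure D2:**
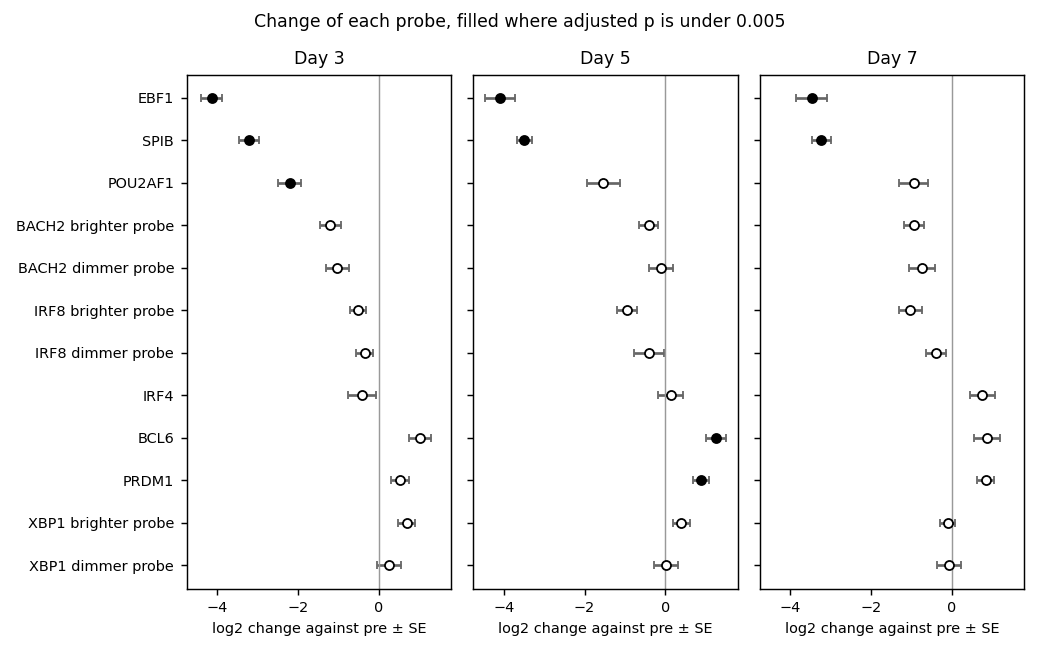
Log2 change against pre-irradiation (horizontal axis, points, with SE bars) of each tested probe at days 3, 5 and 7. Filled points have an adjusted p under 0.005: EBF1 and SPIB on each day, POU2AF1 at day 3, and BCL6 and PRDM1 at day 5. The EBF1 points rest on spots that are mostly below background after irradiation.

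BCL6, the repressor of germinal-centre B cells that is also abundant in granulocytes, moved the other way. Its signal lay between 14.21 and 15.73 before irradiation (median 14.81) and at 16.18, 15.76, 15.97 and 15.71 at day 3. It ran from 15.70 to 16.64 at day 5 (median 16.09) and from 14.81 to 16.96 at day 7 (median 15.60). Of the 6 day 5 arrays, 5 exceeded the highest first sample of any animal, and 6 of 6 animals were above their own first sample, by 0.13 to 2.23. The day 5 change was 1.25 ± 0.250, or 2.38-fold higher, and was called (adjusted p = 0.00171). The changes at day 3 (1.03 ± 0.270, adjusted p = 0.0125) and day 7 (0.87 ± 0.322, adjusted p = 0.0574) were not, although BCL6 was higher in 4 of 4 and 6 of 7 animals. The day 5 call was lost with the animal as a block (1.31, adjusted p = 0.00808), with normexp (0.65, adjusted p = 0.410) and when any of replicates 1, 2, 4 and 7 was left out (adjusted p from 0.00568 to 0.0105). Without replicate 6, whose first sample is the highest, the day 3 change was called (1.17, adjusted p = 0.00353).

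PRDM1, the factor that shuts down the B-cell programme in plasma cells and that also acts in effector T and NK cells, had values between 10.17 and 11.23 before irradiation (median 10.61). They were 10.93, 11.24, 11.26 and 11.56 at day 3, from 11.38 to 12.05 at day 5 (median 11.51) and from 10.89 to 12.14 at day 7 (median 11.58). All 6 day 5 arrays lay above all pre-irradiation arrays, as did those of 5.05% of all genes. The day 5 change was 0.89 ± 0.198, or 1.85-fold higher, and was called (adjusted p = 0.00358). The changes at day 3 (0.52 ± 0.228, adjusted p = 0.0952) and day 7 (0.84 ± 0.212, adjusted p = 0.00930) were not. PRDM1 was above the first sample in 3 of 4, 6 of 6 and 7 of 7 animals. The day 5 call was lost with the animal as a block (0.79, adjusted p = 0.00949), with normexp (0.30, adjusted p = 0.621), with no filter on dim probes (adjusted p = 0.00735) and when any replicate other than 6 was left out (adjusted p from 0.00614 to 0.0175), while the direction did not change.

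**Figure D3:**
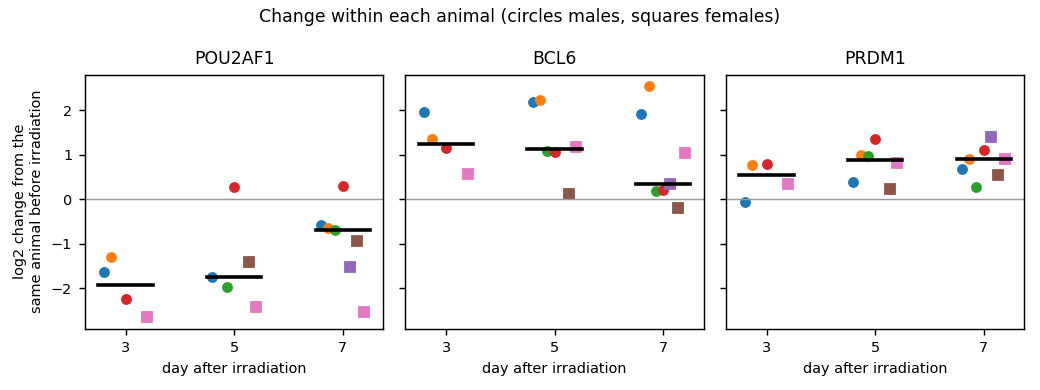
Log2 change of POU2AF1, BCL6 and PRDM1 within each animal, its later sample less its pre-irradiation sample (vertical axis), by day after irradiation (horizontal axis). Circles are males, squares are females, colours are animals and bars are medians. POU2AF1 is below 0 in every animal at day 3 and PRDM1 is above 0 in every animal at days 5 and 7.

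IRF4, which drives plasma-cell differentiation and is induced in activated lymphocytes, was dim. It lay between 5.83 and 7.54 before irradiation (median 6.70), with 6 of 7 arrays well above background, and at 5.93, 6.83, 5.98 and 6.53 at day 3. It ran from 6.32 to 7.47 at day 5 (median 6.84) and from 6.96 to 8.64 at day 7 (median 7.29). Against pre-irradiation the changes were -0.42 ± 0.351, 0.13 ± 0.311 and 0.76 ± 0.314 (adjusted p = 0.372, 0.780 and 0.0858), and the groups overlapped on each day. All 7 day 7 arrays lay above all 4 day 3 arrays, as was the case for 6.11% of all genes, and IRF4 was higher at day 7 than at day 3 in 4 of 4 animals, by 0.43 to 1.77. That difference of 1.17 ± 0.316 had an adjusted p of 0.0286, short of the threshold, and 17.1% of all genes had an adjusted p under 0.05 between these days. The order of the IRF4 means was day 3, pre-irradiation, day 5 and day 7, and no neighbours in this order differed beyond the threshold.

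XBP1, the factor of the unfolded protein response that plasma cells depend on and that neutrophils and monocytes also carry, has 2 probes sharing 49 of their 60 bases. The brighter one lay between 14.70 and 15.13 before irradiation (median 15.01) and at 16.35, 15.22, 15.47 and 15.57 at day 3, so all 4 arrays lay above all pre-irradiation arrays, as did those of 9.08% of all genes. It ran from 14.54 to 16.10 at day 5 (median 15.36) and from 13.94 to 15.31 at day 7 (median 14.97). The changes were 0.69 ± 0.204, 0.40 ± 0.215 and -0.11 ± 0.193 (adjusted p = 0.0217, 0.163 and 0.716). The dimmer probe showed 0.24, 0.01 and -0.07. Within animals at day 3 the dimmer probe was lower in 3 of 4, while the brighter was higher in 4 of 4. The brighter XBP1 probe was called at day 3 after quantile normalization (0.83, adjusted p = 0.00280) and under no other setting tried at that threshold.

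PAX5, which commits cells to the B lineage, was well above background on 0 of 24 arrays. Its spot read between 3.04 and 4.40 before irradiation, between 2.15 and 2.92 at day 3, between 1.89 and 3.59 at day 5 and between 1.97 and 3.88 at day 7. These are readings at background, and no fold or test is given for them.

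The remaining B-cell RNA gives the setting of these values. In bulk blood, fewer B cells and less RNA per B cell cannot be told apart. Of 22 tested B-cell surface and receptor genes, 17 were called lower on each day, where 7.58%, 9.12% and 7.19% of all genes were (medians -2.65, -2.67 and -2.54). The log2 changes on the 3 days were -3.76, -4.31 and -4.32 for MS4A1 (CD20) and -3.53, -3.92 and -3.67 for CD79A, which carries the antigen receptor signal. VPREB3 was below background on every array after irradiation and at least 16.4-, 16.8- and 15.8-fold lower. The 1 gene of this list that was called higher, at days 3 and 5, was CD180 (1.47 and 1.13), a toll-like receptor homologue that monocytes and dendritic cells also carry. This count of 1 fell to 0 with normexp and the session block on both days, blocked by animal or slide at day 3, with no filter on dim probes or all 4 groups in 1 fit at day 5, and when 1 replicate was left out (1 or 4 at day 3, any but replicate 2 at day 5). The summed normalized signal of the 22 genes ran from 49500 to 66100 before irradiation and from 11600 to 16100, 10100 to 18400 and 8840 to 15600 at days 3, 5 and 7.

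Among 25 tested genes of a list of other transcription factors of the B lineage, 7, 6 and 3 were called lower at days 3, 5 and 7. Of all genes, 7.58%, 9.12% and 7.19% were called lower. Of the 25, 0 were called higher, and the medians were -0.17, -0.13 and 0.00. The counts at days 3 and 5 include TCF12, a partner of E2A proteins, whose 2 probes were called in opposite directions: the brightest, which was counted, gave -1.31 and -1.04, and the other 1.48 and 1.82. BCL11A, a factor of early lymphoid and dendritic cells, changed by -3.0, -3.41 and -3.51, and TCF4 (E2-2), which B cells and plasmacytoid dendritic cells use, by -1.98, -2.18 and -1.94. On days 3 and 5 MYC changed by -2.56 and -1.96 and ZBTB32 by -1.80 and -1.75, and TCF3, which encodes the E2A proteins, fell by 1.27 at day 7. Blocked by animal, 2 of these factors were called at day 3, and leaving out 1 replicate gave 2 to 6. The lowest count came without replicate 2 or 4, and it was 3 without replicate 1 and 4 without replicate 3 or 7. At day 5 it was 3 without replicate 2 or 7.

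**Figure D4:**
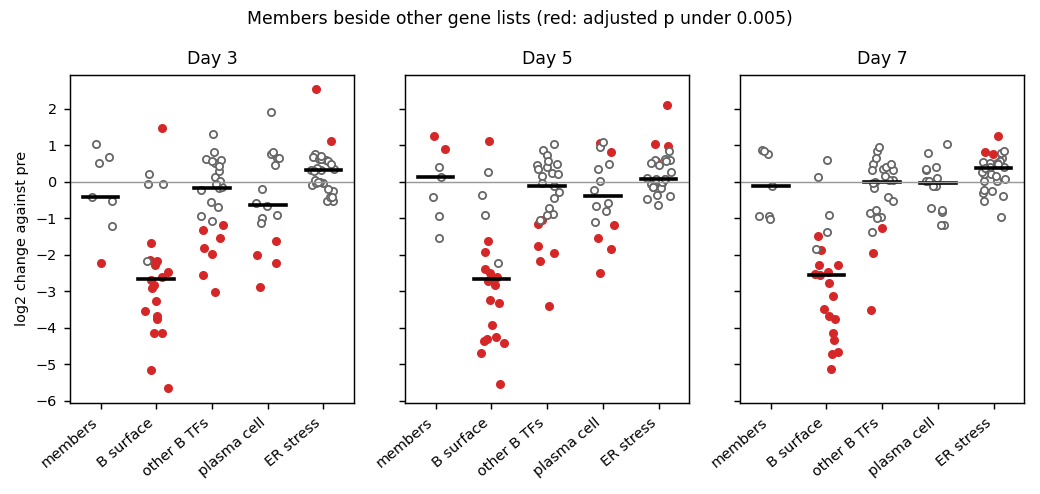
Log2 change against pre-irradiation (vertical axis) of each tested gene of 5 lists at days 3, 5 and 7, 1 point a gene, red where the adjusted p is under 0.005, with the list median as a black bar. The 7 members with a named probe, EBF1 and SPIB left out, have medians of -0.42, 0.13 and -0.11. The B-cell surface genes lie mostly far below 0, with medians of -2.65, -2.67 and -2.54.

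Of 16 tested plasma-cell genes, 4, 4 and 0 were called lower on days 3, 5 and 7, and 0, 2 and 0 higher (medians -0.62, -0.40 and -0.04). Of all genes, 7.58%, 9.12% and 7.19% were called lower and 5.96%, 6.23% and 2.67% higher. TNFRSF17 (BCMA), the survival receptor of plasma cells, changed by -2.87 at day 3, where 1 of 4 arrays was above background, by -2.50 at day 5 and, short of the threshold, by -1.17 at day 7 (adjusted p = 0.140). MZB1, a chaperone of antibody assembly, has 4 probes that disagree. The brightest, which stands for the gene in these counts, changed by -2.0 and -1.55 and differed by -0.82 at day 7 (adjusted p = 0.154). The other 3 differed by 0.17 to 0.57 at day 3 and by -0.17 to 0.28 at day 5, and none of them was called. JCHAIN, which joins polymeric antibodies, changed by -2.22 and -1.84 and differed by -1.17 at day 7 (adjusted p = 0.0936). The fourth was ITM2C (-1.62 and -1.19). The 2 called higher at day 5 were ELL2 (0.82) and PIM2 (1.06), named after their values were seen. This count was 0 with normexp or the session block, 1 with no filter on dim probes, and 1 without replicate 2, 3, 4, 6 or 7. SDC1 (CD138) was not well above background on any array. Blocked by animal, 1 plasma-cell gene was called lower at day 3, and the count was 1 without replicate 1 and 0 without replicate 4. At day 5 it was 1 without replicate 2 and 2 without replicate 1, 4 or 7.

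Across the arrays the 3 named genes most like POU2AF1 were MZB1 (its brightest probe, Pearson r = 0.95 over 23 arrays), DYRK3 (0.93) and TNFRSF17 (0.91). EBF1 was most like RPS18 (0.94), FCRL1 (0.94) and CD79B (0.93), and SPIB most like RPS18 (0.98), BCL11A (0.97) and MS4A1 (0.97). BCL6 was most like WDFY3 (0.96), IL1RAP (0.95) and IGF2R (0.94). The closest genes to PRDM1 were APC (0.85), FSD1L and NANOG, those to XBP1 were DYNLT1 (0.87), C1GALT1C1 and ZC3H12A, and those to IRF8 were POLDIP2 (0.93) and EMC6. IRF4 was most like AGPAT5 (0.89), NSUN2 and DHX33, and BACH2 most like MAML2 (0.79), PPFIBP2 and PFN2. Among the members themselves EBF1 and SPIB had an r of 0.92, BCL6 and PRDM1 of 0.59, and SPIB and PRDM1 of -0.76. These values are over arrays that fall into the 4 groups and come from the same animals, and they are descriptions only.

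XBP1 acts in endoplasmic reticulum stress, for which 27 genes not confined to its own targets were tested. Of these, 2, 4 and 3 were called higher and 0 lower at days 3, 5 and 7 (medians 0.32, 0.08 and 0.39), where 5.96%, 6.23% and 2.67% of all genes were called higher. The 2 of 27 at day 3 is a share near that of all genes. ATF3, a stress-induced factor, rose by 2.53 at day 3 and 2.11 at day 5, while its dimmer probe gave 1.22 and 0.96 and was not called. SEL1L, part of the machinery that removes misfolded proteins, rose by 1.12, 0.98 and 0.76, and the chaperone gene DNAJC3 rose by 0.57 at day 5 and 0.82 at day 7, while its dimmer probe gave -0.058 and 0.20 and was not called. HYOU1, another chaperone, was at least 1.50-fold higher at day 5 and at least 1.74-fold higher at day 7, having been below background on all pre-irradiation arrays. When any 1 replicate was left out, the day 7 call of SEL1L was lost (adjusted p from 0.00537 to 0.0216). So was the day 5 call of HYOU1 (adjusted p from 0.00503 to 0.0186). ERN1 (IRE1), the kinase that splices XBP1 RNA, differed by 0.75, 0.84 and 0.65 and was not called (adjusted p = 0.0621, 0.0246 and 0.0458). Leaving out 1 replicate gave counts of 1 to 2, 2 to 3 and 1 to 2 on the 3 days. They were 1 without replicate 1, 2, 4 or 7 at day 3, 2 without replicate 1, 2, 3, 4, 6 or 7 at day 5, and 1 without replicate 1, 2, 3, 4 or 7 at day 7, and with the animal as a block they were 1, 3 and 1.

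Of 18 tested partners of the members, 0 were called at day 3. At day 5 TLE1, a corepressor, fell by 1.69 and MAFF, a small partner of BACH proteins, was called at 1.54, and at day 7 TLE1 fell by 2.08 and was the 1 partner called. With the session as a block MAFF was -0.076 at day 5 (adjusted p = 0.954), and its call was also lost with normexp, quantile normalization, no filter on dim probes and when any replicate other than 5 was left out (adjusted p from 0.0108 to 0.0213). Of 6 other IRF genes, IRF1, the interferon-induced member, rose by 1.17 at day 5 and 0 were called on the other days. The day 5 calls of TLE1 and IRF1 were lost without replicate 3, that of TLE1 also without replicate 1, and both with normexp and the session block.

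Markers of some other blood cells also changed on the same arrays, and the part of these cells in the member values was not tested. Of all genes, 5.96%, 6.23% and 2.67% were called higher and 7.58%, 9.12% and 7.19% lower on days 3, 5 and 7. Neutrophil markers were called higher for 2, 2 and 1 of 11 genes, with CSF3R at 1.72, 1.82 and 0.35 (not called at day 7), and their summed signal ran from 69600 to 218000 before irradiation and from 183000 to 356000, 137000 to 321000 and 124000 to 470000 after it. Monocyte markers were called higher for 3, 3 and 1 of 11, while CD14 was not called (0.97, 0.88 and 0.03). Platelet markers were called higher for 11, 3 and 0 of 11, with PF4 at 2.38 at day 3. T-cell markers were called lower for 3, 2 and 0 of 14, NK and cytotoxic markers for 0 of 12 on each day, dendritic-cell markers for 2 of 6 on each day and erythroid markers for 7, 9 and 9 of 9. The summed signal of the dendritic-cell markers ran from 6720 to 9390 before irradiation. It ran from 7780 to 13500, 5020 to 11500 and 4330 to 16400 after it, overlapping on each day. CD3E, CLEC4C and LILRA4 were not measured here under these symbols.

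By scan date the arrays form 2 sessions. One, session 1, contains 6 of the first samples with 6 taken at day 7. All arrays of days 3 and 5 and the remaining first sample and day 7 array belong to the other, so comparisons of days 3 and 5 within a session rest on 1 pre-irradiation array. With the session as a block EBF1 was called at day 3 (adjusted p = 0.00369), where no array was above background and the size of its change is only bounded. The day 3 changes were -3.47 for SPIB (adjusted p = 0.00566) and -2.64 for POU2AF1 (adjusted p = 0.0265). The day 5 changes were -3.94 for EBF1 (adjusted p = 0.00749), -3.74 for SPIB (adjusted p = 0.000145), 0.88 for BCL6 (adjusted p = 0.316) and 1.44 for PRDM1 (adjusted p = 0.0278). At day 7, within session 1 alone, EBF1 changed by -3.49 (adjusted p = 0.000226) and SPIB by -3.21 (adjusted p = 2.35e-05), BCL6 by 0.95 and PRDM1 by 0.74, neither called (adjusted p = 0.0794 and 0.0321). The directions of these genes were thus the same within sessions, while SPIB and POU2AF1 at day 3 and EBF1, BCL6 and PRDM1 at day 5 did not pass the threshold there.

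Between days after irradiation, 0 of the 7 genes were called by limma. Day 5 against day 3 called 0.0368% of all genes and had 1 member with an unadjusted p under 0.05, day 7 against day 3 called 1.58% and had 3, and day 7 against day 5 called 0.00921% and had 1. Of all genes, 11.1%, 34.3% and 21.0% had an unadjusted p under 0.05 in these comparisons. The response of males and females from pre-irradiation to day 7 was compared by an interaction term. At an adjusted p under 0.05, 0 genes of the array and 0 members were called, and POU2AF1 came closest with a difference of -1.26 ± 0.642 (females less males, unadjusted p = 0.0706, adjusted p = 0.587).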

How the data were processed

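The data were 24 one-colour Agilent arrays of whole-blood RNA from rhesus macaques. The authors deposited the scanner output of each array, in which the processed signal is an intensity on a linear scale with the local background already subtracted, and a series table of log2 values. Per the labels Feature Extraction 10.7 was used, while the file headers give version 12.0.2.2 and a rhesus array design, where the methods of the study name a human array. Set against the scanner intensity, the deposited log2 table differed by 1 constant per array for at least 99.9% of matched probes. It was used as an alternative. The authors depleted globin transcripts and kept RNA of high integrity.

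For this work the processed signal was taken to log2, outlier spots were left out, saturated spots were kept, and each array was shifted to the array with the middle median (the normalization to the median array that the methods name). Probes with a signal well above background on 4 or more of the 24 arrays were tested, 27133 in all (27127 at day 3), and a gene was represented by its brightest tested probe. The share of probes above background was 48.3% to 61.2% per array, and precision is limited by how many arrays there are. Each pair of groups was compared with limma 3.58.1 in R 4.3.3, two-sided, with Benjamini-Hochberg adjustment over all probes tested and a threshold of 0.005. Python 3.11.15 with pandas 2.3.3, numpy 2.4.6 and matplotlib 3.10.9 was used for reading, summaries and plots. Scripts were tested on simulated data. EBF1 and SPIB were matched by accession in the RefSeq gene table given as reference, which is of another assembly and was used for names only. No gene annotation of rheMac2 was used.

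Arrays were grouped by their titles. Same-numbered arrays come from the same animals: they have the same sex in the labels, the study sampled its animals repeatedly, and their deviations from the group means correlated at 0.129 to 0.652 in every pair, against medians of -0.0938 to -0.0523 between different numbers. Named genes were all 10 members, the 4 called genes of each other list with the largest changes on a day, fixed defining markers, and the 3 genes most correlated with each member. Some named genes are not reported here. The members and the 13 lists were chosen with earlier results of these data known. Alternatives were other normalizations (75th percentile, quantile), normexp background correction with an offset of 50, other filters, the deposited table, all groups in 1 fit, the animal, slide or session as a block, any probe of a gene, another threshold, and leaving out each replicate number.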

Additional observations from a re-analysis of the deposited data

Results flagged for a closer look

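Of 36 groups of 4 to 7 arrays examined for a lone array, those of EBF1 and SPIB included, 3 held one, where chance gives about 1 in 20. POU2AF1 at day 7 was 5.00 in replicate 7, and the nearest of the other arrays was 6.71. The probe matched to SPIB was 10.88 in replicate 1 at day 3, and the nearest other array was 9.80. IRF8 (brighter probe) was 11.16 in replicate 2 at day 3, and the nearest other array was 11.93. These arrays stood farther from the rest of their group than the spread of the rest.

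The brighter XBP1 probe at day 5 was above the animal's own pre-irradiation value in all 4 males and below it in both females, with a median difference of 0.29 over the 6 animals. The dimmer probe did not repeat this split: it was higher in 3 and lower in 3 of the 6 animals, and the males were mixed. The difference between the sexes in the brighter probe was not tested at day 5. At day 7, the day on which the interaction was tested, it was 0.15 ± 0.411 (limma, adjusted p = 0.940).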

How the results depend on the processing

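The counts of called members on days 3, 5 and 7 were 1, 2 and 0. At day 3 it was 2 with quantile normalization (POU2AF1 and XBP1), with probes required above background on every array of a group and with all 4 groups in 1 fit (POU2AF1 and BACH2), 0 with normexp and with the replicate, slide or session block, 4 at an adjusted p under 0.05 (36.0% of all genes), and 1 to 2 when 1 replicate was left out (2 without replicate 6). At day 5 it was 0 with normexp and with the replicate or session block, 1 with no filter on dim probes, 4 at an adjusted p under 0.05 (33.8%), and 0 to 2 when 1 replicate was left out (0 without replicate 1, 2 or 7, 1 without replicate 4 or 5). At day 7 it was 1 (PRDM1) with quantile normalization or all 4 groups in 1 fit, 3 at an adjusted p under 0.05 (26.3%), and 0 to 1 when 1 replicate was left out (1 without replicate 2). Day 7 against day 3 gave 1 (IRF4) at an adjusted p under 0.05 (17.1% of all genes). The pairing by animal changed the calls of POU2AF1 at day 3 and of BCL6 and PRDM1 at day 5 and no other member call.

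EBF1 was called on each day under every setting run but normexp, the slide block at day 3 (adjusted p = 0.0296) and the session block at day 5. SPIB was called under every setting but the slide and session blocks at day 3 (adjusted p = 0.0296 and 0.00566). POU2AF1 kept its day 3 call with each replicate left out and lost it with normexp, the slide block (-3.10, adjusted p = 0.0352) and the blocks given above. For B-cell surface genes called lower, normexp gave 8, 8 and 11 in place of 17, the slide block 0 at day 3 and the session block 4 at day 3 and 10 at day 5. For the other B-lineage factors called lower, normexp gave 1, 2 and 1, the slide block 0 at day 3, the session block 1 at day 3 and 2 at day 5, and no filter on dim probes 4 at day 3. For plasma-cell genes called lower, normexp and the session block gave 0 at days 3 and 5, the slide block 0 at day 3 and all groups in 1 fit 2 at day 5. For endoplasmic reticulum stress genes called higher, normexp gave 0 on each day, the session block 0 at days 3 and 5, and the slide block 0 at day 3 and 1 at day 7. Counts over all genes fell as well: normexp called 89, 131 and 168 in place of 1470, 1668 and 1071, the slide block 0 at day 3, and the session block 18 at day 3 and 185 at day 5. The cause of these changes was not tested.

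Some directions turned, most of them of uncalled values, and those of MAFF and DNAJC3 at day 5 of called ones. With the replicate block IRF4 at day 3 was 0.081 and the dimmer XBP1 probe at day 5 -0.15. With normexp the XBP1 probes were -0.55 and -0.15, DNAJC3 -0.014 and PF4 -0.11 at day 5, and the XBP1 probes were 0.090 and 0.048 at day 7. Quantile normalization gave 0.26 and 0.41 for them at day 7. With the session block IRF4 was -0.34, MAFF -0.076 and CD14 -0.11 at day 5, and CD14 at day 3 was -0.012, or -0.50 with the slide block. Leaving out 1 replicate gave ranges across 0 at day 5 for the dimmer XBP1 probe (-0.15 to 0.17), the dimmer BACH2 probe (-0.30 to 0.11) and IRF4 (-0.081 to 0.21), and at day 7 for the XBP1 probes (-0.20 to 0.16 and -0.18 to 0.072) and CD14 (-0.19 to 0.21).

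The deposited log2 table shifted the median of all genes by 0.14 at day 3 and 0.10 at day 5 and left the member counts as they were, over 6 members. Spots below background limit PAX5 on all arrays, EBF1 after irradiation and IRF4 on 1 array. The slide block at day 3 and the session block at days 3 and 5 rest on 1 pre-irradiation array, while at day 5 the slide was a random block over all of them, and the animals number 4 at day 3.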
